A study of Mus musculus and blank sample with 91 samples.

Results

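Ruminiclostridium and Ruminococcus are 2 genera of the family Ruminococcaceae, and their amplicon sequence variants (ASVs, the distinct 16S rRNA gene sequences inferred from the reads) were followed in the feces of mice with and without experimental autoimmune encephalomyelitis (EAE). All ASVs whose genus name in the taxonomy equals Ruminiclostridium or Ruminococcus were taken, which gave 58 of 2295 ASVs, 22 of Ruminiclostridium and 36 of Ruminococcus, and each genus was summed per sample. Female C57BL/6 mice, 8 weeks old, were left untreated (naïve), given complete Freund's adjuvant alone (CFA), or given 50 µg of the MOG35–55 peptide in the same adjuvant with 250 ng of pertussis toxin on days 0 and 2 (EAE). The labels name the toxin for the EAE mice only, so that MOG peptide and toxin cannot be told apart here. Feces were taken at -2, 8, 14, 19 and 29 days post immunization (dpi), and 88 samples with counts were used, 30 naïve, 29 CFA and 29 EAE, with 5 or 6 mice per treatment and day. Mice were housed 2 to 3 per cage and treatment was given by cage, so cage and treatment cannot be told apart, and p-values measure the spread between mice that may share a cage.

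Both genera belong to the Clostridia, anaerobes of which some live in the large intestine and ferment carbohydrate from the diet. Ruminiclostridium holds cellulose-degrading bacteria, some of which carry their enzymes on the cell surface in assemblies called cellulosomes, and Ruminococcus champanellensis is a gut bacterium known for degrading cellulose. EAE, used to model multiple sclerosis, is an immune attack on myelin that brings ascending paralysis, graded here by a clinical score.

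Totals per sample ran from 9202 to 102437 counts with a median of 64586. The 4 samples under 20000 counts were all from EAE mice, and the shallowest of them, from 8 dpi, held 4 ASVs in all. A level is given below as a percent of the sample's counts. It is a share, since the bacterial load was not measured, so that more of a genus and less of the others cannot be told apart. A listed 0 allows a share of up to 0.0326% in the shallowest sample and 0.00293% in the deepest, at 3 counts, for counting error only. Counts under 10 made up 2.82% of the ASV counts above 0, so that a 0 says that the variant was not inferred in that sample.

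The 58 ASVs came down to 12 sequences once the primer bases at both ends were removed, and 5 of these 12 had under 10 counts in the whole series. One sequence of 402 bases held 92.8% of the Ruminiclostridium counts (37128 of 39988) in 11 ASVs. Of these 11 ASVs, 4 were named Ruminiclostridium straminisolvens, with 16494 counts, and 7 had no species name, with 20634 counts, so that both names stood for one sequence between the primers. The name Ruminiclostridium E siraeum covered 10 ASVs of 2 other sequences with 2857 counts. Ruminococcus was mainly a pair of sequences: the first, with 48073 counts in 12 ASVs, was named R. champanellensis throughout. The second, with 41964 counts, was named Ruminococcus 1/D in 10 ASVs and R. champanellensis in 4. The sequences of Ruminococcus were 91.3% identical to each other over 35 differences, and the leading Ruminiclostridium sequence was 86.3% identical to the first of them and 83.6% to the second. The remaining Ruminococcus ASVs of note, 6 without a species name and with 1551 counts (1.69% of the genus), shared their sequences with ASVs that carry other genus names.

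**Figure D1:**
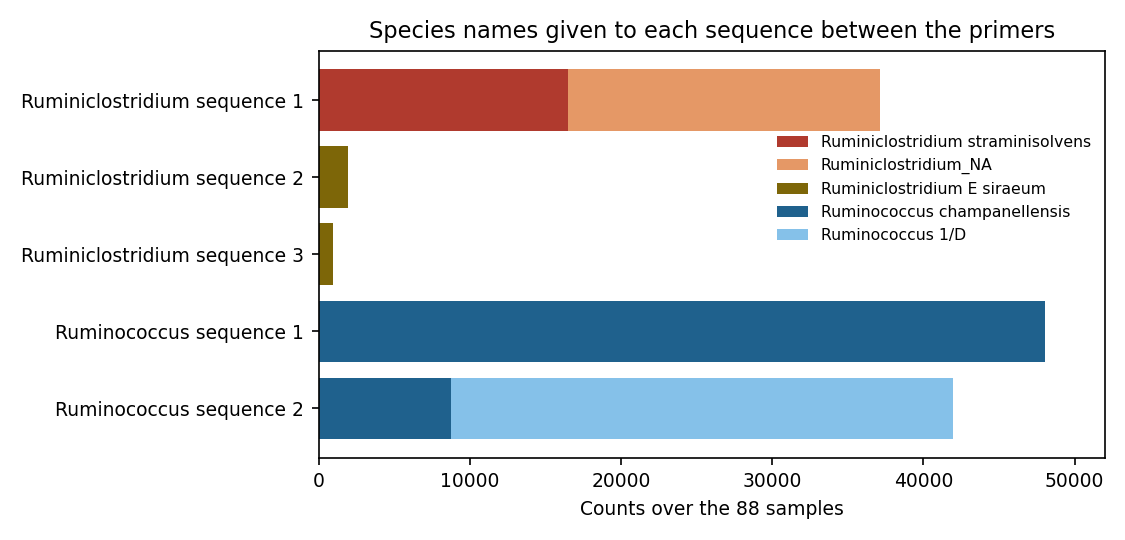
Horizontal bars give the counts summed over the 88 samples for each sequence between the primers that held 10 or more counts and bore one genus name, coloured by species name. Ruminiclostridium sequence 1 bears 2 names (16494 and 20634 counts), and Ruminococcus champanellensis takes all of Ruminococcus sequence 1 and 8762 counts of sequence 2.

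Ruminiclostridium was found in 22 of 88 samples, 15 of the 23 EAE samples after immunization and 7 of the 65 others. The leading sequence was found in 13 EAE samples after immunization and listed at 0 in all 65 others, the EAE samples at -2 dpi included. At 14 dpi the genus stood at 9.34%, 12.3%, 3.21%, 3.00% and 4.37% in the EAE mice, at 0 in the 6 naïve mice and at 0 in 5 of 6 CFA mice, the sixth holding 0.240%. The 12.3% came from a shallow sample of 17326 counts, that of mouse 589, and the other EAE mice ran from 3.00% to 9.34%. No EAE sample overlapped a naïve or CFA sample on that day. The EAE mean was 6.45% ± 4.17 (SD, n = 5), the naïve mean 0 (n = 6) and the CFA mean 0.0399% ± 0.0978 (SD, n = 6). The difference passed an exact two-sided permutation test against naïve mice (p = 0.00216, adjusted p = 0.0198 over 73 genera) and against CFA mice (p = 0.00216, adjusted p = 0.0226), and this p is the smallest that 5 against 6 mice can give. By this test 8.22% of genera were called higher against naïve mice and 6.85% against CFA mice, and the groups did not overlap for 11.0% and 15.1% of genera. With 1 mouse left out the adjusted p ran from 0.0386 to 0.0724 against naïve mice and from 0.0414 to 0.0579 against CFA mice, where 4 against 6 or 5 against 5 mice leave a larger smallest p.

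**Figure D2:**
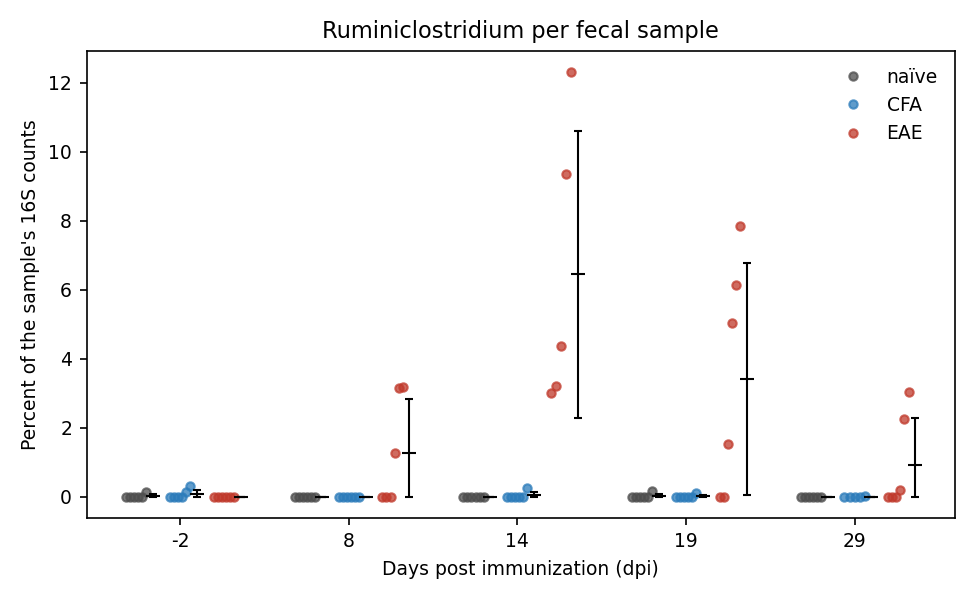
Each point is 1 fecal sample, its height the percent of that sample's 16S counts named Ruminiclostridium, by day and treatment; black bars give the mean and 1 SD, cut at 0 below. The 5 EAE samples at 14 dpi lie between 3.00% and 12.3%, while no naïve or CFA sample on any day exceeds 0.312%. The point at 12.3% is a sample with 17326 counts.

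On the other days fewer EAE mice held the genus. At 8 dpi it stood at 3.17%, 3.16% and 1.28% in 3 EAE mice and at 0 in the other 3, of which 2 were among the shallow samples, and it was at 0 in all naïve and CFA mice. At 19 dpi the EAE values were 7.84%, 6.15%, 5.03% and 1.51%, with 2 mice at 0, 1 of them shallow. At 29 dpi they were 3.03%, 2.26% and 0.199%, with 3 mice at 0. The exact permutation test did not pass against naïve mice at 8 dpi (p = 0.182, adjusted p = 0.830), 19 dpi (p = 0.0606, adjusted p = 0.340) or 29 dpi (p = 0.182, adjusted p = 0.591), nor against CFA mice on these days (p = 0.182, 0.0606 and 0.303). The presence of the genus, 5 of 5 EAE mice against 0 of 6 naïve mice at 14 dpi, gave p = 0.00216 in Fisher's exact test and an adjusted p of 0.0790, which did not pass, and that test called 0.0% of genera.

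The count model, edgeR's quasi-likelihood test over 65 genera, called Ruminiclostridium higher in EAE than in naïve mice at 8 dpi (adjusted p = 0.0233), 14 dpi (adjusted p = 0.00568) and 29 dpi (adjusted p = 0.0193), against a background of 4.62% of genera called higher at each of these days. It was not called at 19 dpi (adjusted p = 0.129, where 3.08% were). Against CFA mice it was called at 8 dpi (adjusted p = 0.0101, background 12.3%) and not at 14 (adjusted p = 0.0688), 19 (adjusted p = 0.0903) or 29 dpi (adjusted p = 0.0727). Each of the called comparisons set EAE mice against a group listed at 0 in every sample. In such a comparison a few positive samples are enough for a low p: 1 of 6 EAE mice with Ruminiclostridium sequence 3, a form of E siraeum, at 29 dpi (0.199%), against 6 naïve mice at 0, had an unadjusted p of 0.0201 in edgeR. Against a group at 0 the fitted fold change has no fixed size and is not given. The uncalled comparisons at 14 and 19 dpi were those in which 1 control mouse held some E siraeum. Without CFA mouse 545 at 14 dpi the adjusted p fell to 0.00876, without CFA mouse 546 at 19 dpi to 0.0219, and without naïve mouse 561 at 19 dpi to 0.0268. Summed with other genera whose names start with Ruminiclostridium, it was called against naïve mice at none of 8 (adjusted p = 0.437), 14 (adjusted p = 0.182) and 29 dpi (adjusted p = 0.755).

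The leading sequence is found in EAE samples alone, so it passed the filter on low counts only through the group in which it is high, and its edgeR calls, here and in the EAE mice over time, are given as a description and support nothing further. It was called higher in EAE than in naïve mice on all 4 days after immunization by edgeR (adjusted p = 0.0490 at 8 dpi, 0.0202 at 14, 0.0263 at 19 and 0.0339 at 29, over 203 sequences). The share of all sequences called higher was 2.96%, 2.96%, 3.45% and 16.3% on these days, so the call at 29 dpi stood among many. Against CFA mice it was called at 8 (adjusted p = 0.0238), 14 (adjusted p = 0.0141) and 19 dpi (adjusted p = 0.0212) and not at 29 dpi (adjusted p = 0.0747), with 4.93%, 6.4%, 8.87% and 0.985% of sequences called higher. The sequence held 6.22% ± 4.16 of counts (SD, n = 5) in EAE mice at 14 dpi, 3.31% ± 3.28 (SD, n = 6) at 19 dpi, 1.05% ± 1.63 at 8 dpi and 0.882% ± 1.39 at 29 dpi. The highest value at 14 dpi came from the shallow sample of mouse 589. At 8 and at 29 dpi these calls rested on 2 of 6 EAE mice. In the exact permutation test over 501 sequences none of the days passed against naïve mice (p = 0.455 at 8, 0.00216 at 14, 0.0606 at 19 and 0.455 at 29 dpi, with adjusted p = 0.136 at 14 dpi and 1 on the others), and at 14 dpi the test called 0.0% of sequences. Of all single ASVs, 5.71% were called against naïve mice at 14 dpi, but none of the 6 single Ruminiclostridium ASVs found in enough samples was called by edgeR in any of these comparisons, with 5 at an unadjusted p under 0.05 against naïve mice at 14 dpi. In 1 EAE sample at 14 dpi the sequence was spread over 9 primer forms.

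The labels number the EAE mice differently before 14 dpi and from that day on, and the deposited sample table ties the numbers to 6 mice. By those ties, every one of the 6 EAE mice held the leading sequence on at least 1 day, 2 of them on 1 day, 2 on 2 days and 2 on 3 or more days. Mouse 553 held it on all 4 days, at 3.16%, 3.21%, 5.03% and 2.26%. Mouse 550 went from 3.17% at 8 dpi to 8.66% and 7.39% at 14 and 19 dpi and was at 0 at 29 dpi. Mouse 551 was at 0 at 8 dpi and at 12.3%, 6.15% and 0 afterwards, and its samples at 8 and 14 dpi were shallow. Mice 555 and 557 held it at 14 dpi alone, at 2.55% and 4.37%, and mouse 556, which has no sample at 14 dpi, at 19 and 29 dpi, at 1.27% and 3.03%. The 0 of mouse 555 at 8 dpi and that of mouse 557 at 19 dpi came from shallow samples. The highest level fell at 14 dpi in mice 550, 551, 555 and 557 and at 19 dpi in mouse 553. In mouse 556, without a sample at 14 dpi, it fell at 29 dpi.

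**Figure D3:**
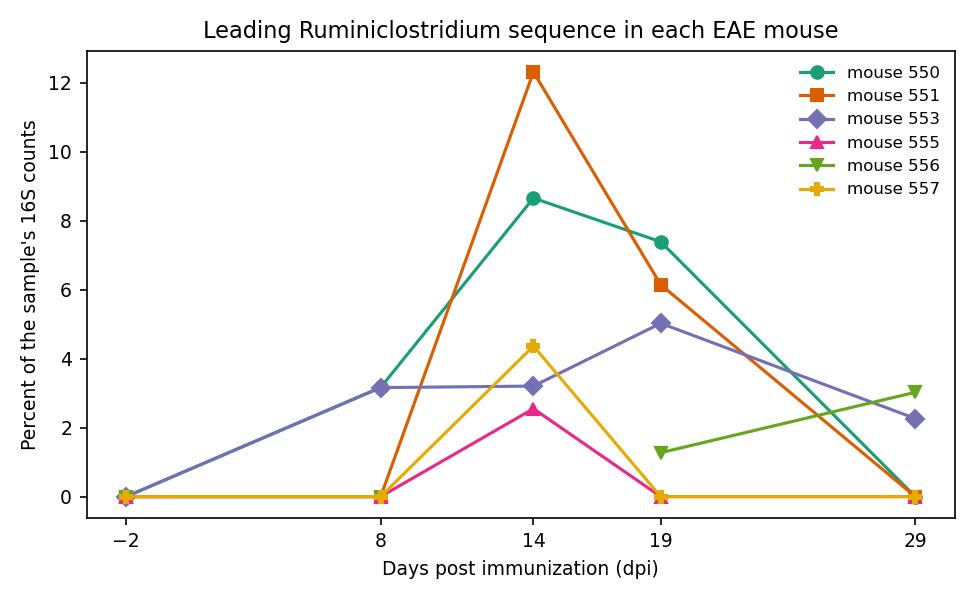
Each line is 1 EAE mouse, by the subject number of the deposited sample table; the vertical axis is the percent of the sample's 16S counts in the leading Ruminiclostridium sequence, and the gap in the line of mouse 556 is its missing sample at 14 dpi. All 6 mice start at 0 at -2 and 5 are above 0 at 14 dpi, the highest at 12.3% in a sample with 17326 counts.

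Within the EAE mice, edgeR called Ruminiclostridium higher than at -2 dpi at 8 (adjusted p = 0.0441), 14 (adjusted p = 0.0105), 19 (adjusted p = 0.0175) and 29 dpi (adjusted p = 0.0218), where 1.54% of genera were called higher, that is this genus and no other of the 65. The EAE mice were all at 0 at -2 dpi, and against such a group a few positive samples are enough for a low p. With 1 mouse left out, the call was lost in 8 of 12 fits at 8 dpi and 5 of 12 at 29 dpi. At 14 and 19 dpi it was kept in every such fit. With only the groups compared in the fit, 8, 19 and 29 dpi did not pass (adjusted p = 0.115, 0.0717 and 0.185). The leading sequence alone passed at 14 dpi (adjusted p = 0.0372, where 0.985% of sequences were called higher) and not at 8, 19 or 29 dpi (adjusted p = 0.0695, 0.0504 and 0.0792, where 0.0% were). With the mouse number as a replicate block in a fit of -2 and 8 dpi, the days that share numbers in the labels, the adjusted p was 0.628. With the sample table's subject numbers as the block over all days, it was 0.0269 at 8, 1.28e-05 at 14, 0.0110 at 19 and 0.0419 at 29 dpi. In percents, the exact permutation test without pairing passed at 14 dpi (6.45% against 0, p = 0.00216, adjusted p = 0.0263, background 8.22%), and not at 19 (adjusted p = 0.395) or 29 dpi (adjusted p = 0.664). Paired by subject, 5 mice give no p below 0.0625, and the adjusted p at 14 dpi was 0.507.

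The E siraeum sequences had another distribution. They were found in 12 samples, 6 EAE samples after immunization and 6 others: 1 naïve and 2 CFA mice at -2 dpi, 1 naïve mouse at 19 dpi, and 1 CFA mouse each at 14 and 19 dpi. Where present they ran from 0.0982% to 0.312% in the naïve and CFA mice and from 0.199% to 1.28% in the EAE mice. edgeR called the species name Ruminiclostridium E siraeum in no comparison of EAE with naïve or CFA mice, the lowest adjusted p being 0.0522, against CFA at 8 dpi. E siraeum made up the whole genus in the controls at -2 dpi. Measured from that day, the change of the genus in EAE mice exceeded that of naïve mice in edgeR's interaction term on all 4 days, with adjusted p from 0.00132 to 0.0230, where 3.08%, 4.62%, 3.08% and 4.62% of genera were called higher. It also exceeded that of CFA mice, with adjusted p from 0.000902 to 0.0120 and 9.23%, 6.15%, 9.23% and 3.08% of genera called higher. These terms use the controls' level at -2 dpi, which was E siraeum in 1 naïve and 2 CFA mice. The leading sequence was at 0 in every mouse on that day, and its own terms held no information on a change. The last Ruminiclostridium sequence was 3 counts in 1 CFA sample at 29 dpi.

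Ruminococcus was common in every treatment, in 75 of 88 samples, and held 1.63% of all counts. Before immunization it stood at 0.403% ± 0.248 in naïve, 0.725% ± 0.579 in CFA and 0.863% ± 0.580 in EAE mice (SD, n = 6 each), with 5 of 6 mice positive in each group. At 14 dpi the EAE mice held 14.5%, 3.80%, 3.06%, 2.66% and 2.39%, a mean of 5.28% ± 5.18 (SD, n = 5), of which the highest came from a shallow sample, that of mouse 589. Without it the mean was 2.98% ± 0.612 (SD, n = 4), and the unadjusted exact permutation p was 0.0952 against naïve and 0.152 against CFA mice. The naïve mice held 0 to 3.37% and the CFA mice 0 to 3.57% on that day, so the groups overlapped. At 19 dpi the EAE mice ran from 2.71% to 5.42% with a median of 4.36%, the CFA mice from 0.562% to 2.83% with a median of 1.52% and the naïve mice from 0 to 4.49% with a median of 0.910%. At 29 dpi all 6 EAE mice held the genus, at 0.209% to 2.45%, as did all 5 CFA mice, at 0.279% to 5.93%, against 2 of 6 naïve mice, at 0.557% and 0.925%.

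**Figure D4:**
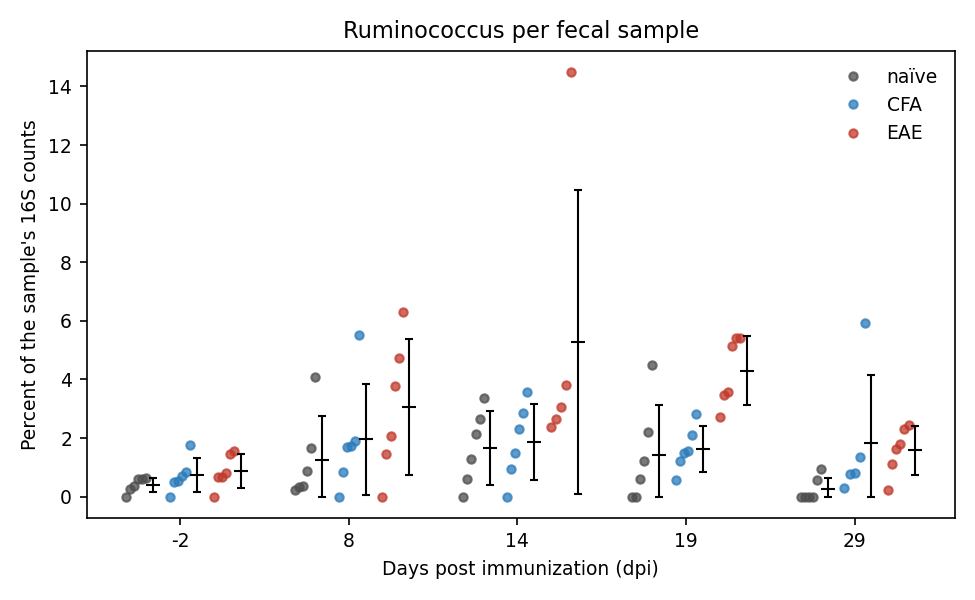
Each point is 1 fecal sample, its height the percent of that sample's 16S counts named Ruminococcus, by day and treatment; black bars give the mean and 1 SD, cut at 0 below. The treatments overlap on every day, and the single point at 14.5% is an EAE sample of 14 dpi with 17326 counts.

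No difference in Ruminococcus between treatments passed after adjustment in edgeR or in the exact permutation test with all samples. In percents, the EAE mean exceeded the naïve mean by 3.62 points at 14 dpi (exact permutation p = 0.0303, adjusted p = 0.158), 2.87 points at 19 dpi (exact p = 0.0130, adjusted p = 0.119) and 1.33 points at 29 dpi (exact p = 0.00866, adjusted p = 0.0903). It exceeded the CFA mean by 3.42 points at 14 dpi (exact p = 0.0433, adjusted p = 0.158) and 2.66 points at 19 dpi (exact p = 0.00433, adjusted p = 0.0527), and at 29 dpi the CFA mean was the higher by 0.250 points (exact p = 0.905, adjusted p = 1). That last direction turned on 1 mouse: the EAE mean was the higher by 0.776 points without CFA mouse 546 and by 0.0247 points without EAE mouse 595. At 19 dpi this test called 2.74% of genera higher against naïve and 5.48% against CFA mice. Without the samples under 20000 counts the difference from CFA mice at 19 dpi passed (adjusted p = 0.0395). CFA mice exceeded naïve mice by 1.58 points at 29 dpi (exact p = 0.0173, adjusted p = 0.158), and by 0.558 points without CFA mouse 546 (unadjusted exact p = 0.0571). edgeR called the genus in 0 of 15 comparisons between treatments, with 0 at an unadjusted p under 0.05, where it called 1.54%, 12.3%, 6.15%, 6.15% and 9.23% of genera between EAE and naïve mice on the 5 days in order, 3.08%, 26.2%, 13.8%, 10.8% and 7.69% between EAE and CFA mice, and 7.69%, 21.5%, 9.23%, 7.69% and 7.69% between CFA and naïve mice. DESeq2 called it in 1 of 15, CFA against naïve at 29 dpi (adjusted p = 0.0425). The log2 fold change of EAE over naïve mice in edgeR was 1.13 ± 1.67 (SE) at 14 dpi, an error larger than the change itself, so a missing call does not show that the levels were alike.

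Against its own level at -2 dpi, Ruminococcus in EAE mice was higher by 4.42 points at 14 dpi in the exact permutation test without pairing (p = 0.00216, adjusted p = 0.0263, where 8.22% of genera were called higher) and by 3.43 points at 19 dpi (exact p = 0.00216, adjusted p = 0.0790), of which the first passed. Without mouse 589 the difference at 14 dpi was 2.11 points (unadjusted exact permutation p = 0.00476). Paired by subject the adjusted p at 14 dpi was 0.507. The naïve mice stood at 0.403% at -2 and at 1.66% ± 1.27 (SD, n = 6) at 14 dpi, with higher values in 5 of 6 mice (exact sign-flip p = 0.0625, adjusted p = 1). The CFA mice had higher values in 6 of 6 at 19 dpi (exact sign-flip p = 0.0312, adjusted p = 0.760). Neither difference passed, and 0.0312 is the smallest p that sign flips of 6 mice can give. The EAE change was tested without pairing, so a pass there and none here does not set the treatments apart. In edgeR's interaction term the change of Ruminococcus in EAE mice was called against that of naïve or CFA mice on no day.

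The main Ruminococcus sequences are described side by side. The first, named R. champanellensis, was at 4.61% ± 5.56 (SD, n = 5) in EAE mice at 14 dpi, against 0.506% ± 0.836 in naïve and 0.747% ± 0.890 in CFA mice (SD, n = 6 each), and it was found in all 5 EAE mice and in 3 of 6 mice of each other treatment. The second, mostly named Ruminococcus 1/D, stood on the same day at 0.666% ± 0.470 in EAE mice, 1.01% ± 0.685 in naïve and 1.11% ± 0.591 in CFA mice. In the exact permutation test the first had p = 0.00649 against naïve and p = 0.0108 against CFA mice (adjusted p = 0.361 for both) and the second p = 0.366 and p = 0.212 (adjusted p = 1 for both), so neither passed. The first minus the second, chosen after the values were seen and therefore given without a test, was 3.95 points in EAE, -0.508 in naïve and -0.361 in CFA mice. Without mouse 589 the first stood at 2.14% ± 0.782 (SD, n = 4) and the second at 0.833% ± 0.332, 1.31 points apart. At 19 dpi the sequences stood at 2.54% ± 1.03 and 1.71% ± 1.15 in EAE mice (SD, n = 6) and at 0.889% and 0.528% in naïve mice, 0.837 and 0.362 points apart. Neither sequence was called between treatments by edgeR: the first had 0 of 15 comparisons called and 2 at an unadjusted p under 0.05, the second 0 of 15 and 0. DESeq2 called the first sequence in 2 of 15, both at -2 dpi, when it was found in 3 of 6 EAE mice, 1 of 6 CFA mice and 0 of 6 naïve mice. From that 0, edgeR called the first sequence higher in naïve mice at 14 (adjusted p = 0.0469) and 19 dpi (adjusted p = 0.0395), with 3 of 6 mice positive on each day, where 0.985% of sequences were called higher.

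**Figure D5:**
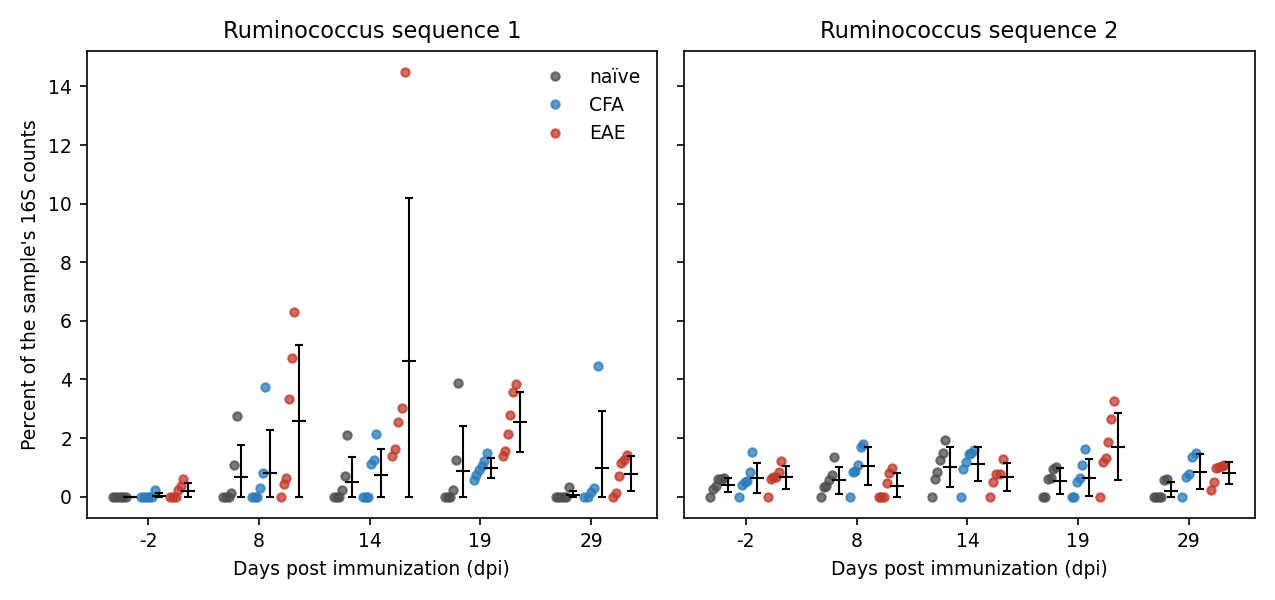
Points are fecal samples and their height is the percent of the sample's 16S counts in the first (left) and second (right) Ruminococcus sequence, by day and treatment on a shared axis; black bars give the mean and 1 SD, cut at 0 below. At 14 dpi the EAE mean is 4.61% for the first and 0.666% for the second sequence.

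The share of the family Ruminococcaceae held by both genera together was 29.1% to 57.6% in EAE mice at 14 dpi, 0 to 50.7% in naïve and 2.11% to 25.9% in CFA mice. The family as a whole stood at 16.1% to 46.6% of counts in the EAE mice that day at 7.59% to 13.8% in the CFA mice and at 1.63% to 6.64% in the naïve mice. Of the 17 other genera of the family, 16 could be tested in edgeR. Against naïve mice, 0 were higher and 1 lower at 8 dpi, and 0 were called at 14, 19 and 29 dpi, with 4, 3 and 6 at an unadjusted p under 0.05. The exact permutation test called 2, 1 and 0 of them higher on these days. Over all 73 genera that test called 8.22% higher at 14 dpi and 2.74% at 19 dpi. No other genus of the family was called on 3 or more days. Their median log2 fold change in EAE against naïve mice at 14 dpi was 0, as it was over all 65 genera. A median of 0 over single genera does not show that the rest of the family stood alike. Both genera held at most 57.6% of the family in the EAE mice that day, and the rest of the family was not tested as a sum.

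Levels of other genera on the same days were as follows. Lactobacillus stood at 0.258% to 2.34% in EAE mice at 14 dpi and at 19.1% to 48.0% in naïve mice. Romboutsia, a genus of the Peptostreptococcaceae, was found in 18 of the 23 EAE samples after immunization and in 0 of the 47 naïve and CFA samples of those days, and 12 of the 13 samples with the leading Ruminiclostridium sequence held it. At -2 dpi it was found in 6 of 6 CFA mice, at 0.565% to 4.68%, in 2 of 6 EAE mice and in 1 of 6 naïve mice, so it was not particular to EAE mice. The part of these shifts in the percents of both genera was not tested. Over the 88 samples, the genera whose percents ranked most like Ruminiclostridium were Romboutsia (Spearman's rho 0.57), Candidatus_Soleaferrea/Massilioclostridium (rho 0.52) and Clostridium_sensu_stricto_1 (rho 0.48), of 45 compared. For Ruminococcus they were Eubacterium (rho 0.56), Candidatus_Soleaferrea/Massilioclostridium (rho 0.47) and Ruminococcaceae_UCG-014 (rho 0.46). Lactobacillus had the lowest rho of the 45 with both, -0.52 and -0.46. These are descriptions over samples that share mice, treatments and a sum of 100%.

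Clinical score and weight were compared with both genera among the 6 EAE mice at 19 and at 29 dpi, 8 relations in all, and none passed after adjustment. The closest was Ruminococcus at 19 dpi, where mice with higher scores held less of it (Pearson's r = -0.88, exact permutation p = 0.0222, adjusted p = 0.178; Spearman's rho = -0.97, exact permutation p = 0.0111, adjusted p = 0.0889). The mouse with a score of 0 held 5.42% and the 2 mice with a score of 4 held 3.47% and 2.71%, and r was -0.98 without the 2 mice farthest from the median. On a centred log ratio scale rho was -0.79 (exact permutation p = 0.100) and r -0.65 (exact permutation p = 0.167), and r was -0.08 without 2 mice, so that on this scale the relation rested on those mice. For Ruminiclostridium on that day r was -0.72 (exact permutation p = 0.106, adjusted p = 0.422) and rho -0.67 (exact permutation p = 0.167, adjusted p = 0.444), the 2 mice at 0 having scores of 4 and 3.5. The sample of the mouse with a score of 3.5, which enters the relations of both genera on that day, was shallow at 15279 counts.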

How the data were processed

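Fecal DNA was amplified over the V3–V4 region of bacterial 16S rRNA, and the authors inferred ASVs with DADA2 and named them from a curated table. The deposited table holds counts per ASV and sample, not rarefied, with totals from 9202 to 102437. The CFA sample with a total of 0 was left out, and the 2 water controls are not analysed here. Members and lists were chosen with earlier results of these data known. Both primers remained in 2274 of 2295 ASVs, so primer bases were removed and identical sequences summed, giving 501. Genera found in 3 or more samples were tested with edgeR 4.0.16 (TMMwsp factors, quasi-likelihood test, 15 groups in one fit) and Benjamini-Hochberg adjustment at 0.05 per comparison. DESeq2 1.42.0 was an alternative. Percents were tested by exact permutation of the absolute difference in means, or by sign flips within mice, over 73 genera (numpy 2.4.6). Fisher's exact test and the correlations were computed with SciPy 1.17.1. The named taxa were both genera, their species names and sequences with 10% or more of a genus. On simulated counts of sequences with large known changes edgeR found all of them at a low dispersion. It found none at 6.87, the common dispersion over all genera tested. The real fit called some genera in every comparison between treatments, so that setting differs from the data and does not measure the power for these genera. An uncalled edgeR comparison does not show that levels were alike. Same-numbered samples come from the same mouse per the labels. The deviations of such pairs from their group means (53 pairs, genera as centred log ratios) correlated at a median r of 0.03, from -0.28 to 0.53. For EAE mice the deposited sample table gives subject numbers that differ from the labels in 17 samples.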

Additional observations from a re-analysis of the deposited data

Results flagged for a closer look

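In 8 of the 25 groups in which the percents varied, 1 sample stood far from the rest of its group by Dixon's criterion, which chance meets in about 1 of 20 groups of continuous values. For Ruminiclostridium these were single control mice in groups otherwise at 0, where any value above 0 meets the criterion and that rate does not apply: naïve mouse 558 at -2 dpi (0.132%), naïve mouse 561 at 19 dpi (0.154%), CFA mouse 545 at 14 dpi (0.240%), CFA mouse 546 at 19 dpi (0.0982%) and CFA mouse 545 at 29 dpi (0.00342%, which is 3 counts). For Ruminococcus they were CFA mouse 548 at 8 dpi (5.52%, the next at 1.91%), CFA mouse 546 at 29 dpi (5.93%, the next at 1.36%) and EAE mouse 589 at 14 dpi (14.5%, the next at 3.80%), the last with 17326 counts.

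The change of Ruminiclostridium since -2 dpi differed between treatments in the interaction term of edgeR. Against naïve mice the adjusted p was 0.00365 at 8 dpi, 0.00132 at 14, 0.0230 at 19 and 0.00314 at 29 dpi, and against CFA mice 0.000902, 0.0106, 0.0120 and 0.00847. From 3.08% to 9.23% of genera were called higher in these terms. They use the -2 dpi level of the controls, which was E siraeum in 1 naïve and 2 CFA mice. They were not recomputed with 1 mouse left out. For the leading sequence, at 0 in all 18 mice at -2 dpi, the same terms had adjusted p of 1.00, as a change from 0 against a group always at 0 leaves the term without information.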

How the results depend on the processing

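Over 110 results, 366 of 404 values under other settings kept their direction and their side of the threshold, as did 584 of 632 values with 1 mouse left out. A result uncalled under both settings and with the same direction counts as kept. Leaving out 1 mouse covered both genera between treatments, and in edgeR the EAE mice against -2 dpi. Interaction terms, presence, sequences, percent changes since -2 dpi and relations to score and weight were not recomputed this way. All values below are adjusted p. DESeq2 called Ruminiclostridium also where edgeR did not. At -2 dpi it called EAE mice lower than naïve (1.44e-07) and CFA mice (1.18e-08). All EAE mice were then at 0, against 1 positive naïve mouse and 2 positive CFA mice. It called CFA against naïve mice at 14 (7.66e-08) and 29 dpi (6.09e-05). There all naïve mice were at 0 and only CFA mouse 545 was positive, at 0.240% at 14 dpi and 3 counts at 29 dpi. It also called EAE against CFA mice at 29 dpi (0.0424), and the leading sequence in that comparison (0.000342). Ruminococcus was called in CFA against naïve mice at 29 dpi (0.0425). With genera whose names start alike summed, Ruminiclostridium was no longer called against naïve mice at 8 (0.437), 14 (0.182) and 29 dpi (0.755), against CFA mice at 8 dpi (0.809) or in the change against CFA mice at 29 dpi (0.0526), and was called against CFA mice at -2 dpi (0.0453), so the calls hold for the genus as named. With only the groups compared in the fit, EAE against CFA mice at 14 dpi passed (0.0272) and EAE mice at 8, 19 and 29 dpi against -2 dpi did not (0.115, 0.0717 and 0.185), and no value could be had where the genus failed the filter on low counts. EAE mice at 8 against -2 dpi also missed the threshold with total counts as the scaling (0.0532) and without the samples under 20000 counts (0.0519), a setting chosen after seeing the data, in which Ruminococcus in percents passed against CFA mice at 19 dpi (0.0395). Also chosen after seeing the data were DESeq2 for the sequences, and the summed names and the fit of only the groups compared where they concern changes since -2 dpi.

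The replicate block by mouse number ended the call at 8 against -2 dpi (0.628), and pairing by the sample table's subjects, added after seeing the data, ended the percent calls of Ruminiclostridium and Ruminococcus at 14 against -2 dpi (0.507 for both), where 5 mice cannot reach the threshold. It changed no other call.

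Directions turned where no difference had been called. With names summed this was so for Ruminiclostridium in CFA against naïve mice at 19 (1) and 29 dpi (0.877) and for the Ruminococcus change against naïve mice at 8 dpi (1.00). For Ruminococcus it was so with DESeq2 in EAE against CFA mice at -2 dpi (1) and in the change against naïve mice at 8 and 14 dpi (1), with total counts in EAE against CFA mice at -2 dpi and CFA against naïve mice at 14 dpi (1), with only the groups compared in the same comparisons (0.995 and 0.966), and without the shallow samples in the change at 14 dpi (1.00). On a centred log ratio scale 4 relations to score or weight turned sign (1 each).

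With 1 mouse left out, Ruminiclostridium ran from 0.00876 to 0.117 in EAE against CFA mice at 14 dpi, 0.0219 to 0.169 at 19 dpi, 0.0268 to 0.221 against naïve mice at 19 dpi, 0.102 to 1 in CFA against naïve mice at 19 dpi, 0.0310 to 0.0931 in EAE mice at 8 against -2 dpi and 0.0258 to 0.0559 at 29 against -2 dpi. In percents at 14 dpi it ran from 0.0386 to 0.0724 against naïve and 0.0414 to 0.0579 against CFA mice, and the call was lost on leaving out naïve mouse 558, 560, 561, 562 or 563, and EAE mouse 588, 591 or 595 or CFA mouse 543, 545 or 546. Ruminococcus in percents ran from 0.0316 (without EAE mouse 594) to 0.0948 against CFA mice at 19 dpi and from 0.749 to 1 at 29 dpi, and in edgeR stayed at 1 in the 5 comparisons in which its direction turned. The causes were not tested. Shallow samples limit what a 0 can show, and 4 of 29 EAE samples had under 20000 counts.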
